A study of Caenorhabditis elegans with 15 samples.

Results

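The comparison was between aged nematodes kept with an extract of Cuscuta chinensis (C. chinensis) and nematodes kept with the solvent alone, and it was read across all genes at an FPKM of at least 1 in 5 or more of the 10 libraries. FPKM is the number of sequenced fragments of a gene divided by the length of the gene and by the size of the library. Of 46906 genes in the table, 13556 met this rule. Both groups were whole wild-type N2 hermaphrodites of Caenorhabditis elegans (C. elegans) on day 12 of adulthood, kept from the L4 larval stage at 22 °C on OP50 bacteria with 2 mg/mL carbenicillin and 100 µM FUdR, a compound that blocks the production of offspring. The treated group had 30 µg/mL of C. chinensis extract in 0.05% DMSO, the control group had 0.05% DMSO, and each group had 5 libraries from tubes of 3000 to 4000 worms. The titles call the libraries of a group biological replicates. The sources used here do not say whether these came from separate cultures, and the p-values measure the spread between these libraries. The remaining 5 libraries of the series, from worms given another plant extract, were not part of the comparison.

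A whole worm is a mixture of tissues. The gonad of an adult hermaphrodite holds a large part of its RNA, and the genes for ribosomes, DNA replication, meiosis and early embryos are read there at high levels, whereas muscle, cuticle, gut and nerve genes are read in the rest of the body. The X chromosome carries few genes of the germ line and is largely silent in germ cells, while the autosomes carry genes of both kinds. In such bulk samples, fewer cells of a type and less RNA per cell cannot be told apart.

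The library totals, recovered from the FPKM steps of the 21-nucleotide piRNA genes, ranged from 37920765 to 82839505 fragments with DMSO and from 37963794 to 81833288 with C. chinensis. Between 12798 and 13346 genes reached 1 FPKM with DMSO and between 13572 and 14231 with C. chinensis. On the first principal component, which held 67.2% of the variance, the DMSO libraries lay between -44.6 and -21.4 and the C. chinensis libraries between 20.6 and 48.3. The 2 deepest libraries, DMSO replicate 2 and C. chinensis replicate 4, were the ones nearest to the other group on this axis. The part of depth in the results was not tested beyond a fit without these libraries, which gave 2543 genes higher and 705 lower. Ribosomal RNA differed widely within groups, and the rRNA gene rrn-3.1, named after its values were seen, stood at 455, 262, 339, 1049 and 1543 FPKM with DMSO and 1259, 1024, 2288, 419 and 4149 FPKM with C. chinensis. These values overlapped, and the part of rRNA in the results below was not tested.

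Most genes that passed the test were higher with C. chinensis. Genes were called when limma gave an adjusted p under 0.05 and the level changed by more than 1.5-fold. By this rule 2403 genes were upregulated (17.7% of the genes tested) and 401 were downregulated (2.96%), 20.7% in either direction. The upregulated genes had a median log2 fold change (log2FC) of 0.87, and 878 of them rose more than 2-fold. The downregulated genes had a median of -0.66, and 15 fell more than 2-fold. Of the upregulated genes, 90.6% had all 5 C. chinensis libraries above all 5 DMSO libraries, as had 24.1% of all genes tested, and of the downregulated genes 83.8% had them all below, against 26.1% of all genes.

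The upward share depended on where the zero was set. The median log2FC over all genes tested was -0.07 after the scaling used here (trimmed means) and 0.06 on the FPKM as deposited. Scaling by median of ratios gave -0.03, and quantile normalization -0.11. The genes called higher made up 85.7% of all calls with the first, 96.3% without scaling (3101 higher and 118 lower), 90.3% with median of ratios (2591 and 279) and 65.3% with quantile normalization (1545 and 821). On the adjusted p alone, 30.4% of genes (4124) stood higher and 34.7% (4707) lower, so that small decreases outnumbered increases of all sizes. The count of downregulated genes also moved with single libraries, to 229 without C. chinensis replicate 5 and 588 without DMSO replicate 3. Of the 218 called genes named below, 179 kept their call under every alternative other than the stricter fold limits, 34 lost it with quantile normalization, 20 without further scaling and 16 with some library left out, and none changed sign. Below, the other scalings are the FPKM as deposited, median of ratios and quantile normalization, and a range over them gives the lowest and highest value.

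Increases were more frequent on chromosomes X and V and, in 3 of the 4 scalings, among weakly expressed genes. Among genes with a mean under 5 FPKM, 1036 of 4148 rose, and between 5 and 20 FPKM 24.0% rose, whereas from 20 to 100 FPKM 8.82%, from 100 to 1000 FPKM 8.89% and from 1000 FPKM up 10.3% rose. The median log2FC went from 0.26 in the lowest band to 0.10 in the next and -0.27, -0.26 and -0.27 in the remaining bands. With quantile normalization, which sets all libraries to one distribution, the medians of the lowest bands were -0.04 and -0.12, so that their sign depended on the scaling. The share called higher then was 10.4% under 5 FPKM (431 genes), 14.4% from 5 to 20 FPKM and 10.2% from 20 to 100 FPKM, so that the excess in the lowest band was absent. On chromosome X, 573 of 1707 genes rose (33.6%) and 17 fell (0.996%), and on chromosome V 686 of 2527 rose (27.1%) and 88 fell. On chromosomes I, II, III and IV, 8.59%, 14.4%, 9.95% and 16.3% of genes rose. With quantile normalization 358 genes rose on the X, 429 on V and 753 of 9235 on I to IV together (8.15%), against 11.4% of all genes.

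The shift of chromosome X was present at every level of expression. Its median log2FC was 0.41, against -0.13 on the autosomes, and it stayed between 0.20 and 0.53 under the other scalings and between 0.39 and 0.43 with each library left out. With quantile normalization its medians from the lowest to the highest band were 0.12, 0.15, 0.50, 0.68 and 0.69. Among genes of 100 to 1000 FPKM, the median was 0.68 for the 59 genes of the X and lay between -0.30 and -0.24 on the 5 autosomes. In this band 30 X-linked genes rose and none fell, and the highest were the cuticle collagen genes col-184 and col-181 and the yolk protein gene vit-5. Of the 7 X-linked genes over 1000 FPKM, 5 rose. Chromosome V differed, since its genes over 20 FPKM had medians of -0.27, -0.26 and -0.34 like the other autosomes, while those of 5 to 20 FPKM stood at 0.33 and those under 5 FPKM at 0.37. The chromosomes also differ in which tissues read their genes, and the part of tissue composition in these medians was not tested.

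**Figure D1:**
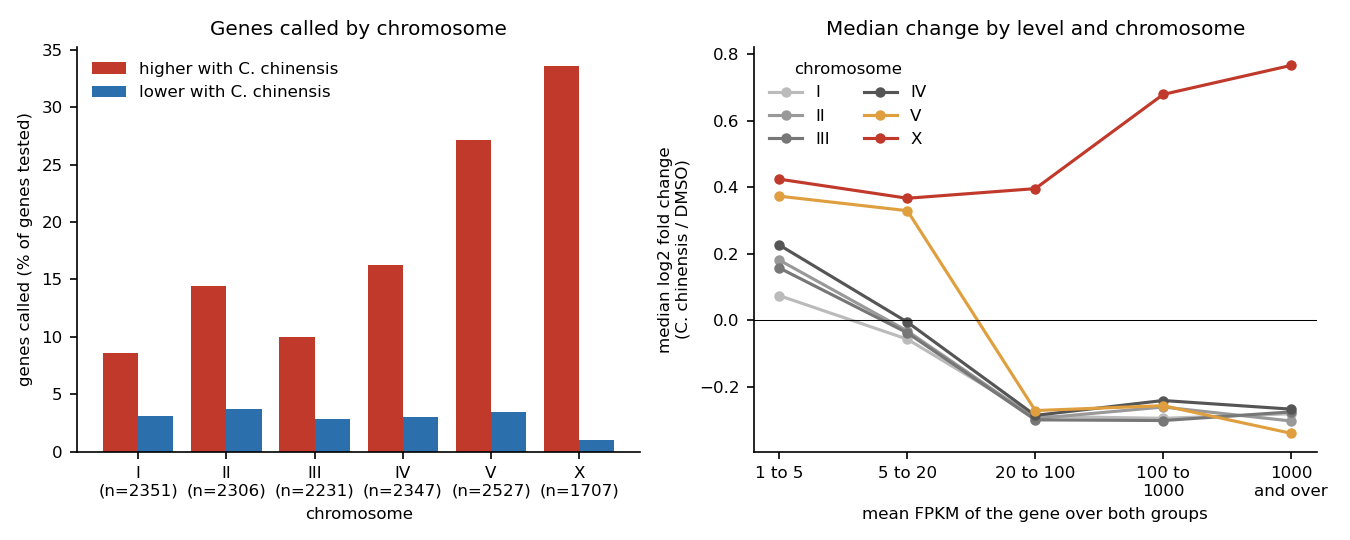
Left, share of the genes tested on each chromosome that were called higher (red) or lower (blue) with C. chinensis, in percent. Right, median log2 fold change of the genes of each chromosome in 5 bands of mean FPKM. The X stands at 33.6% higher and stays above 0 in every band, while the autosomes lie near -0.3 from 20 FPKM up.

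Marker genes of the tissues moved in different directions. Of 15 body wall muscle markers, 12 rose (median log2FC 0.90), and their summed level was 255 to 328 FPKM with DMSO and 494 to 745 FPKM with C. chinensis. Of 15 intestine markers, 7 rose (median 0.44), and the sums were 511 to 925 FPKM with DMSO and 1913 to 2984 FPKM with C. chinensis. Without the yolk genes vit-2 and vit-6, which hold most of these sums, they were 214 to 295 FPKM with DMSO and 430.3 to 609 FPKM with C. chinensis, with 5 of 13 genes higher. Of 6 epidermis markers tested out of 15, 4 rose, while 7 of the others, among them the collagen genes dpy-7 and rol-6, stayed under 1 FPKM in all 10 libraries. Of 13 neuron markers tested, 1 passed the fold limit and 11 were higher without it, with sums of 470.4 to 506 FPKM with DMSO and 649 to 758 FPKM with C. chinensis. All 12 germ cell markers had a negative log2FC (median -0.42), 1 of them past the fold limit, and their sums were 2418 to 2530.0 FPKM with DMSO and 1779 to 2184 FPKM with C. chinensis. Of 12 oocyte and eggshell markers, 11 were lower without the fold limit (median -0.40), while their sums, at 2950.4 to 3172 FPKM with DMSO and 2021 to 3222 FPKM with C. chinensis, overlapped. The 12 sperm markers, 2 of them lower without the limit (median -0.11), also overlapped, at 919 to 1059.8 FPKM with DMSO and 838 to 1425 FPKM with C. chinensis. Their part in the results below was not tested.

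Saposin-like, lipid binding and cuticle proteins led the increases. The gene spp-9, a member of the saposin-like family of small proteins that act on lipid membranes (chromosome X, 11487784 to 11488203, WBcel235), stood at 1.01, 2.81, 1.79, 6.44 and 1.41 FPKM with DMSO and 230.4, 57.6, 147, 31.6 and 166 FPKM with C. chinensis (log2FC 5.08 ± 0.49 SE, adjusted p = 4.4e-06). Every treated library was far above every control. Its family member spp-12 was at 1.96, 3.44, 3.06, 4.12 and 2.08 FPKM with DMSO and 50.4, 20.1, 48.3, 18.9 and 40.1 FPKM with C. chinensis (log2FC 3.18 ± 0.26 SE, adjusted p = 1.7e-06). The fatty acid and retinol binding protein gene far-3 (chromosome V, 12996787 to 12997522) was at 1.87, 6.35, 2.99, 7.46 and 3.42 FPKM with DMSO and 218, 81.4, 167, 65.4 and 210.4 FPKM with C. chinensis (log2FC 4.76 ± 0.36 SE, adjusted p = 1.2e-06). For all 3 genes C. chinensis replicates 2 and 4 were the lowest of their group and still lay above every control.

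Cuticle collagens followed. The level of col-101 was 0.613, 3.6, 1.51, 3.51 and 0.796 FPKM with DMSO and 58.3, 24.4, 19.5, 8.82 and 46.8 FPKM with C. chinensis (log2FC 3.49 ± 0.47 SE, adjusted p = 4.3e-05), and that of col-183, on the X, was 0.275, 0.698, 0.15, 1.28 and 0.31 FPKM with DMSO and 9.57, 5.82, 10.3, 5.26 and 11.9 FPKM with C. chinensis (log2FC 3.06 ± 0.27 SE, adjusted p = 3.1e-06). Neither gene overlapped between groups. The fungus-induced peptide gene fip-6 was at 0.452, 1.25, 0.86, 0.956 and 0.0449 FPKM with DMSO and 11.3, 8.45, 14, 4.88 and 11.6 FPKM with C. chinensis (log2FC 3.05 ± 0.30 SE, adjusted p = 4.9e-06), the caenacin gene cnc-6, an antimicrobial peptide family, rose by 2.71 ± 0.25, and the astacin metalloprotease gene nas-11 was at 4, 11.7, 10.2, 11.5 and 6.1 FPKM with DMSO and 74.3, 50.4, 63.5, 38.8 and 77.1 FPKM with C. chinensis (log2FC 2.66 ± 0.25 SE, adjusted p = 4.0e-06). In col-183 and fip-6 most controls were under 1 FPKM. Both met the expression filter through the treated group, so their calls were not independent of it. The remaining genes of the 15 with the largest increase were col-143 and col-178, F37H8.5, a relative of lysosomal thiol reductases, and ZK970.7, F48C1.9, F23D12.11 and T19B10.2, with log2FC from 2.66 to 3.10.

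The steadiest increases were in other genes. F12A10.1 had the smallest p in limma, at 9.06, 13.3, 8.97, 12.4 and 8.53 FPKM with DMSO and 54.7, 51.5, 71.6, 46.9 and 66.6 FPKM with C. chinensis (log2FC 2.29 ± 0.13 SE, adjusted p = 4.1e-07). It was followed by F26G1.2 (1.95 ± 0.11), C39E9.8 (1.93 ± 0.11) and ptr-8, a patched-related membrane protein gene, at 4.25, 6.09, 5.99, 6 and 4.75 FPKM with DMSO and 19.6, 17.5, 22, 18.5 and 23.1 FPKM with C. chinensis (log2FC 1.67 ± 0.10 SE, adjusted p = 9.0e-07). The treated libraries of ptr-8 lay within 17.5 to 23.1 FPKM and the controls within 4.25 to 6.09 FPKM. The bestrophin anion channel gene best-14 (2.22 ± 0.15), the lectin gene clec-146 (1.90 ± 0.13), the carnitine palmitoyltransferase gene cpt-4 (1.74 ± 0.12), the transthyretin-related gene ttr-37 (1.24 ± 0.08), F48D6.4 (2.00 ± 0.13) and T12D8.5 (1.69 ± 0.12) completed the 10 genes with the smallest p. For each gene without overlap the exact two-sided permutation test gave p = 0.0079, the smallest that 5 libraries against 5 allow.

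**Figure D2:**
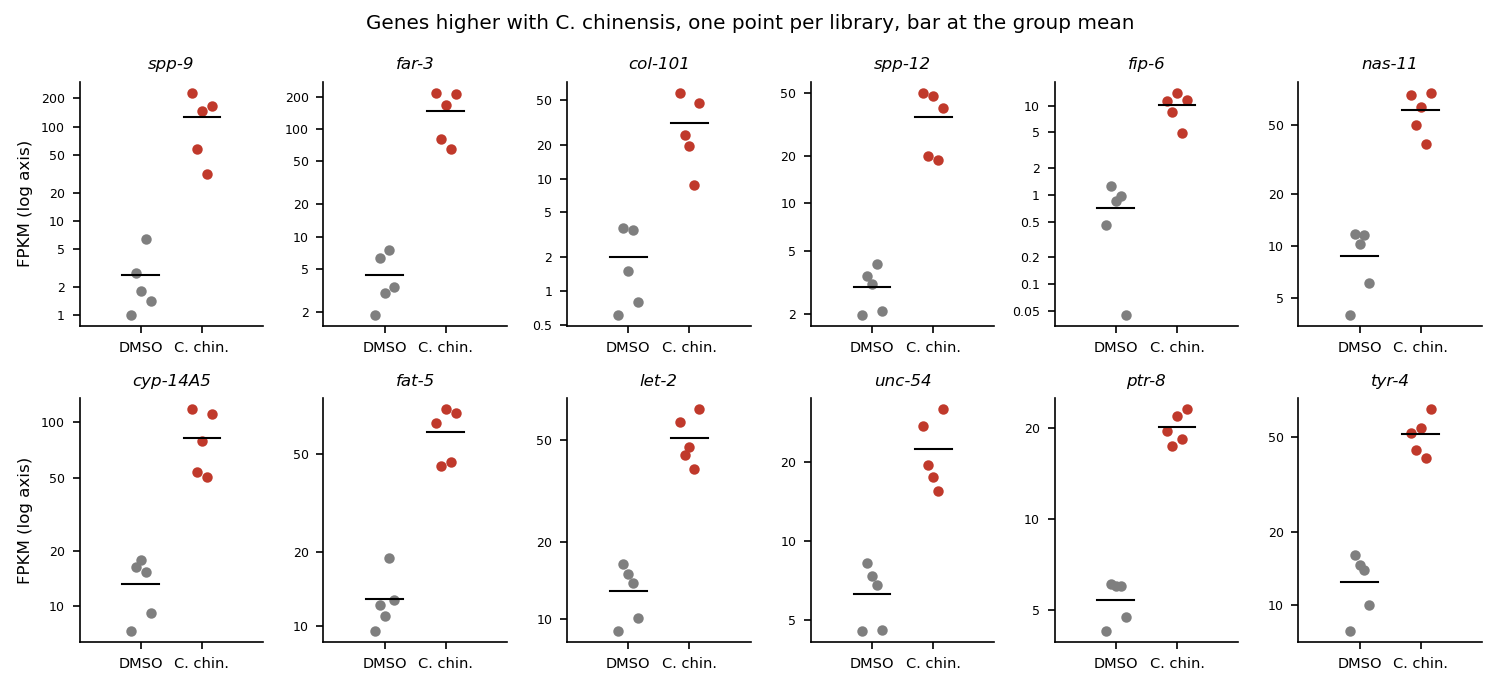
FPKM on a log axis of 12 upregulated genes, 1 point per library (grey, DMSO, red, C. chinensis) and a bar at the mean of 5 libraries. In none of the 12 do the groups overlap, and spp-9 and far-3 show the widest gap.

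In amount of RNA, the largest gains were in lipid carriers, transthyretin-related and uterine proteins. far-2, which encodes an abundant secreted binder of fatty acids and retinol, was at 1419 ± 204 FPKM with DMSO and 3679 ± 553 FPKM with C. chinensis (mean ± SD, n = 5, as for all such pairs), the largest gain of any gene. Its relative far-1 was at 1104 ± 118 FPKM with DMSO and 2085 ± 284 FPKM with C. chinensis, and lbp-2, a secreted fatty acid binding protein gene, at 607 ± 98.1 FPKM with DMSO and 1857 ± 415 FPKM with C. chinensis. All 8 far genes rose (median log2FC 1.36). The transthyretin-related gene ttr-51 was at 1718, 1919, 1831, 1951 and 1994 FPKM with DMSO and 2772, 3319.7, 4507, 3468 and 4136 FPKM with C. chinensis (log2FC 0.79 ± 0.11 SE, adjusted p = 4.5e-05). Its controls lay close together, and all treated libraries stood above them.

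The 5 ule genes, named for expression in the uterine lumen, all rose by a similar amount. ule-1 was at 1224, 1411, 1283, 1368 and 1199.9 FPKM with DMSO and 1825, 2357, 3099, 2271 and 2516 FPKM with C. chinensis (log2FC 0.74 ± 0.10 SE, adjusted p = 5.4e-05), and ule-2, ule-3, ule-4 and ule-5 had log2FC of 0.96, 0.98, 0.89 and 0.74. None of the 5 overlapped between groups. This list was put together after the values were seen. The cystatin gene cpi-1, an inhibitor of cysteine proteases, was at 832 ± 149 FPKM with DMSO and 1861 ± 384 FPKM with C. chinensis, and the yolk protein gene vit-2 at 223 to 468 FPKM with DMSO and 1023 to 1608 FPKM with C. chinensis. The lysozyme gene lys-7 was at 50.7, 219, 181, 161 and 67.8 FPKM with DMSO and 1182, 643, 831, 425 and 948 FPKM with C. chinensis (log2FC 2.55 ± 0.36 SE, adjusted p = 5.9e-05). tts-1, a long non-coding RNA found on ribosomes in long-lived mutants, was at 873, 888, 1160.3, 1389 and 911 FPKM with DMSO and 1559, 1481, 2688, 1942 and 2204 FPKM with C. chinensis (log2FC 0.77 ± 0.16 SE, adjusted p = 7.9e-04). Y62H9A.5, F08B12.4, ZK813.3 and Y37D8A.19 rose by 0.68 to 0.91, and the call of Y62H9A.5 was lost without C. chinensis replicate 3.

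These gains stood against a lower share of ribosomal protein RNA. The 82 cytosolic ribosomal protein genes held 31.7, 31, 29.6, 30.8 and 31.6% of the summed FPKM with DMSO and 26.6, 28.3, 27.3, 28.4 and 27.4% with C. chinensis. No library of either group reached into the range of the other (exact permutation p = 0.0079). None of the 82 genes passed the fold limit, 70 were lower without it, against 34.7% of all genes, and the median log2FC was -0.30 (-0.25 to -0.05 under the other scalings). The ttr genes held 0.592% ± 0.036 with DMSO and 1.17% ± 0.179 with C. chinensis, the far genes 0.306% ± 0.0386 with DMSO and 0.717% ± 0.0958 with C. chinensis and the ule genes 0.465% ± 0.0477 with DMSO and 0.926% ± 0.149 with C. chinensis. The vit genes held 0.0578% ± 0.0208 with DMSO and 0.232% ± 0.0545 with C. chinensis and the col genes 0.0375% ± 0.00958 with DMSO and 0.178% ± 0.0784 with C. chinensis.

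**Figure D3:**
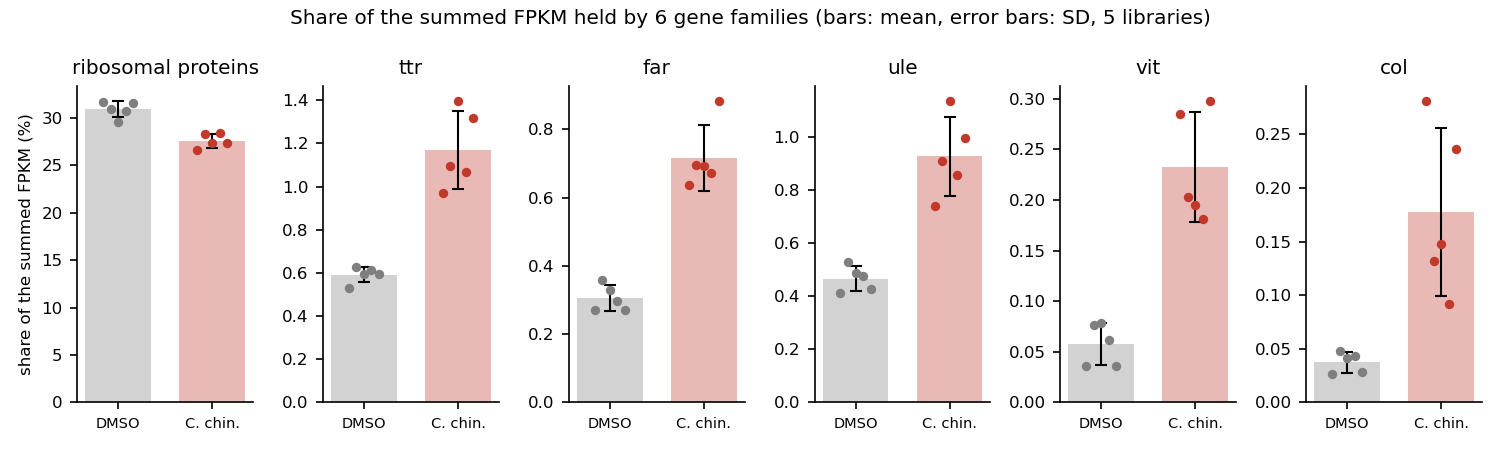
Share of the summed FPKM held by 6 gene families, in percent, with the bar at the mean, the error bar the SD and 1 point per library. The ribosomal protein genes hold the largest share and stand lower with C. chinensis, and the ttr, far, ule, vit and col genes stand higher.

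Contractile genes of body wall muscle were upregulated. Of 27 sarcomere genes tested, 18 rose and none fell (median log2FC 0.71, against -0.07 for all genes). unc-54, the major myosin heavy chain, was at 4.52, 8.22, 7.33, 6.76 and 4.58 FPKM with DMSO and 27.4, 19.5, 17.6, 15.5 and 31.8 FPKM with C. chinensis (log2FC 1.60 ± 0.20 SE, adjusted p = 2.2e-05). The troponin I gene unc-27 (1.58 ± 0.16), the troponin T gene tnt-2 (1.42 ± 0.21) and the calponin gene cpn-3 (1.33 ± 0.14) followed. Of 20 genes of the dense bodies and M-lines, which fix the filaments to the membrane, 8 rose, among them cpna-1 (log2FC 1.07 ± 0.10) and the zyxin gene zyx-1 (log2FC 0.93 ± 0.11). Of 19 genes of excitation and calcium handling, 2 rose (10.5%, under the 17.7% of all genes). These were the calsequestrin gene csq-1 (log2FC 1.63 ± 0.15) and the IP3 receptor gene itr-1 (log2FC 0.70 ± 0.12). Attachment genes called higher numbered 3 of 20 with quantile normalization.

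Genes of the basement membrane, the sheet of matrix around muscle and other tissues, were higher too. Of 22 basement membrane genes, 13 rose and none fell (median log2FC 0.62). Both chains of type IV collagen were among them: let-2 was at 8.98, 16.5, 15, 13.8 and 10.1 FPKM with DMSO and 59, 43.7, 47.3, 38.6 and 66.2 FPKM with C. chinensis (log2FC 1.81 ± 0.16 SE, adjusted p = 3.1e-06) and emb-9 at 7.85, 14.6, 14.8, 12.7 and 9.91 FPKM with DMSO and 43.1, 31, 36.2, 30.8 and 48.1 FPKM with C. chinensis (adjusted p = 8.5e-06). The chains form one network, and neither overlapped between groups. The papilin gene mig-6 (log2FC 1.42 ± 0.16) and the perlecan gene unc-52 (log2FC 1.17 ± 0.17) followed. Intermediate filament genes of epithelia rose as well, with ifb-1 at 10.1, 24.6, 25.7, 16.3 and 10 FPKM with DMSO and 81.4, 48.8, 77.6, 60.4 and 97.8 FPKM with C. chinensis (log2FC 1.98 ± 0.25 SE, adjusted p = 2.5e-05) and ifa-4 by 1.64 ± 0.17. Of 21 innexins, the gap junction proteins, 5 rose (23.8%, against 17.7% of all genes), with inx-12 highest (1.10 ± 0.10). With quantile normalization 1 rose. Without the fold limit 10 were higher and 7 lower.

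Genes that build and shape the cuticle rose broadly. Of 47 col genes tested out of 159 in the table, 29 rose (median log2FC 1.34). Enzymes that process these collagens were higher too, the procollagen protease gene dpy-31 (log2FC 1.14 ± 0.12), the prolyl hydroxylase gene phy-2 (log2FC 1.02 ± 0.14), the dual oxidase gene bli-3 (log2FC 0.98 ± 0.12) and the peroxidase gene mlt-7 (log2FC 0.94 ± 0.13), part of 7 of 26 tested that rose. Hedgehog-related secreted proteins and their patched-related partners serve in C. elegans in moulting and cuticle traffic. Of 31 of them, 16 rose, among them ptr-14 (log2FC 1.37 ± 0.14), ptr-20 (log2FC 1.26 ± 0.14) and grl-4 (log2FC 1.26 ± 0.22), and 2 fell (1 to 3 with a library left out). Of 36 secreted metalloproteases, 10 rose (27.8%, against 17.7% of all genes), with nas-9 (log2FC 1.54 ± 0.16), zmp-4 (log2FC 1.41 ± 0.13) and zmp-3 (log2FC 1.36 ± 0.19) after nas-11.

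Detoxification enzymes were upregulated across families. Cytochrome P450 enzymes oxidize foreign compounds and lipids, and 32 of 40 rose with none lower (median log2FC 0.87). cyp-14A5 was at 7.26, 16.2, 17.8, 15.4 and 9.16 FPKM with DMSO and 118, 53.6, 79.5, 50.1 and 111 FPKM with C. chinensis (log2FC 2.46 ± 0.26 SE, adjusted p = 8.1e-06), and cyp-34A9 (log2FC 2.40 ± 0.25), cyp-32A1 (log2FC 1.78 ± 0.14) and cyp-29A4 (log2FC 1.54 ± 0.15) followed. Of 27 glutathione S-transferases, which attach glutathione, 14 rose, with gst-4, a common reporter of the oxidative stress response, at 2.31, 4.37, 3.99, 3.89 and 2.43 FPKM with DMSO and 15.1, 10.2, 11.2, 9.33 and 15.5 FPKM with C. chinensis (log2FC 1.59 ± 0.18 SE, adjusted p = 1.0e-05). Among UDP-glucuronosyltransferases 32 of 43 rose, with ugt-26 highest (2.23 ± 0.30), and among the P-glycoprotein pumps 9 of 12. With quantile normalization the counts were 19 cytochrome P450, 8 transferase, 17 ugt and 4 pgp genes.

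Reductases, antioxidant and metal genes were more mixed. Of 41 short-chain and aldehyde dehydrogenases, 14 rose, with dhs-5 (log2FC 1.52 ± 0.11) and dhs-31 (log2FC 1.31 ± 0.16) highest. Of 33 antioxidant enzymes, 6 rose (18.2%, near the 17.7% of all genes) and the median was -0.03. They included the glutathione peroxidase gene gpx-5 (log2FC 1.39 ± 0.12), the mitochondrial superoxide dismutase gene sod-3, at 0.89, 1.23, 0.826, 0.918 and 0.791 FPKM with DMSO and 2.27, 2.63, 3.04, 2.77 and 3.54 FPKM with C. chinensis (log2FC 1.12 ± 0.14 SE, adjusted p = 2.2e-05), and the catalase genes ctl-1 (log2FC 1.02 ± 0.19) and ctl-2 (log2FC 0.90 ± 0.08). None of these 4 overlapped between groups. Most controls of sod-3 were under 1 FPKM. This gene met the expression filter through the treated group, so its call was not independent of it. Of 38 metal genes, 15 rose, led by catp-3 (log2FC 2.00 ± 0.30), the ferritin gene ftn-1, at 24.2 ± 5.26 FPKM with DMSO and 88.7 ± 25.4 FPKM with C. chinensis (log2FC 1.70 ± 0.16 SE, adjusted p = 4.1e-06), and the zinc transporter genes zipt-2.2 (log2FC 1.21 ± 0.15) and zipt-13 (log2FC 1.10 ± 0.10). Small heat shock proteins, which hold unfolded proteins in solution, rose in 9 of 11, with hsp-43 at 63.4 ± 24.2 FPKM with DMSO and 229.7 ± 47.1 FPKM with C. chinensis (log2FC 1.77 ± 0.20 SE, adjusted p = 1.4e-05) and hsp-12.3 (log2FC 1.48 ± 0.16) and hsp-12.6 (log2FC 1.21 ± 0.24) next. The summed FPKM of the 14 small heat shock genes in the table overlapped, at 2176 to 2601 with DMSO and 2071 to 2474 with C. chinensis. The large chaperones did not follow the small ones in their calls, with 0 of 32 called higher, 0 lower and a median of -0.25. Without a fold limit 3 of them were higher and 20 lower in limma, and voom on the recovered fragments called 1 higher.

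Genes of the far family of lipid binding proteins rose, and some genes of fat synthesis with them. Of 28 lipase, lipid droplet and lipid binding genes, 19 rose (median log2FC 0.78), far-3, far-4 (log2FC 1.76 ± 0.21), far-5 (log2FC 1.69 ± 0.23) and lbp-3 (log2FC 1.55 ± 0.12) most. All 8 far genes were among the 19. Of 26 genes of fatty acid synthesis, desaturation and elongation, 10 rose. The Δ9 desaturase gene fat-5 was at 9.54, 12.1, 11, 18.9 and 12.8 FPKM with DMSO and 66.7, 44.9, 76.3, 46.7 and 73.2 FPKM with C. chinensis (log2FC 2.08 ± 0.17 SE, adjusted p = 2.0e-06), and fat-2 and fat-3, which make polyunsaturated fatty acids, rose by 1.25 ± 0.11 and 1.06 ± 0.09. The elongase genes split, since elo-5, needed for branched fatty acids, rose by 1.67 ± 0.33 while elo-1 was at 376, 347, 339, 375 and 390.3 FPKM with DMSO and 249, 278, 246, 294 and 231 FPKM with C. chinensis (log2FC -0.64 ± 0.09 SE, adjusted p = 6.2e-05). The call of elo-1 was lost without C. chinensis replicate 5, without DMSO replicate 5, without further scaling and with quantile normalization. It was also lost with library weights, with an FPKM of at least 1 in all 10 libraries and among genes with a mean of at least 5 FPKM.

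Of 59 acyl-CoA synthetase and beta-oxidation genes, 24 rose, among them the carnitine palmitoyltransferases, which take fatty acids into mitochondria. cpt-3 was at 5.26, 9.1, 7.36, 8.38 and 7.39 FPKM with DMSO and 37.9, 28.2, 36.8, 23.6 and 39.9 FPKM with C. chinensis (log2FC 1.94 ± 0.15 SE, adjusted p = 1.2e-06). Peroxisomes shorten very long fatty acids, and 16 of 27 peroxisomal genes rose (median log2FC 0.70), including acox-1.5 (log2FC 1.28 ± 0.21), the peroxin gene prx-3 (log2FC 1.10 ± 0.13) and maoc-1 (log2FC 0.97 ± 0.10). The 4 yolk protein genes tested all rose, with vit-5 at 26.1, 61.2, 52.2, 57 and 30.8 FPKM with DMSO and 424, 186, 231, 141 and 305 FPKM with C. chinensis (log2FC 2.32 ± 0.27 SE, adjusted p = 1.6e-05), vit-6 by 2.13 ± 0.23 and vit-1 by 1.34 ± 0.18, while the yolk receptor gene rme-2 and lrp-2, the others of the list, were not called. The sequences of vit-3, vit-4 and vit-5 are nearly identical, so fragments may have been shared among them. In the glyoxylate cycle, which turns fat into sugar, icl-1 was at 100.0 ± 11.1 FPKM with DMSO and 257 ± 48.9 FPKM with C. chinensis (log2FC 1.20 ± 0.11 SE, adjusted p = 3.6e-06), the 1 gene of 31 of the TCA and glyoxylate cycle that rose.

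Amino acid and one-carbon pathways held some of the clearest groups. Of 19 genes of tryptophan, tyrosine and phenylalanine use, 10 rose and none fell (median log2FC 0.86). The tyrosinase-like gene tyr-4 was at 7.77, 16.1, 14.7, 13.9 and 9.98 FPKM with DMSO and 52, 44.1, 54.5, 40.7 and 65.1 FPKM with C. chinensis (log2FC 1.88 ± 0.17 SE, adjusted p = 3.0e-06), and 2 enzymes of the kynurenine pathway of tryptophan, tdo-2 and kynu-1, rose by 1.58 ± 0.16 and 1.65 ± 0.17. Of 32 methionine, folate and phosphatidylcholine genes, 11 rose. They included the S-adenosylmethionine synthetase gene sams-1, at 7.78, 11.8, 10.7, 11.3 and 10.1 FPKM with DMSO and 29.5, 24.2, 23.8, 22.3 and 31.3 FPKM with C. chinensis (log2FC 1.17 ± 0.12 SE, adjusted p = 6.1e-06), the cystathionine gamma-lyase gene cth-1 (log2FC 1.55 ± 0.18) and the folate transporter-like gene folt-2 (log2FC 1.57 ± 0.26). acdh-1, a dehydrogenase of the propionate shunt that is switched on when vitamin B12 is low, was at 10.7, 17.1, 11.5, 14.9 and 14.8 FPKM with DMSO and 49.4, 39, 51.4, 39 and 55 FPKM with C. chinensis (log2FC 1.59 ± 0.13 SE, adjusted p = 1.7e-06), and its regulator nhr-68 rose by 1.08 ± 0.11. In all, 3 of 18 genes of the propionate pathways rose (16.7%, under the 17.7% of all genes).

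Sugar metabolism changed at few steps. Of 26 glycolysis and gluconeogenesis genes, 4 rose (15.4%, under the 17.7% of all genes) and the median was 0.01. They were pck-1 and pck-2, PEP carboxykinases that open gluconeogenesis (1.55 ± 0.18 and 0.75 ± 0.07), the glycerol-3-phosphate dehydrogenase gene gpdh-1 (log2FC 1.35 ± 0.22) and the pyruvate kinase gene pyk-2 (log2FC 1.01 ± 0.13). Of 16 trehalose and glycogen genes, 4 rose, including the trehalase gene tre-3 (log2FC 1.14 ± 0.11) and the synthase gene tps-1 (log2FC 0.77 ± 0.08). The de novo purine genes atic-1 (log2FC 1.14 ± 0.11), pacs-1 (log2FC 0.95 ± 0.13) and ppat-1 (log2FC 0.90 ± 0.13) were 3 of the 5 that rose among 20 nucleotide genes. Without the fold limit 7 of the 20 were higher and 8 lower (median log2FC -0.05). Of 6 purine synthesis genes, these 3 rose and 3 were lower without the limit. The sums of the 6 overlapped, at 562 to 671 FPKM with DMSO and 458 to 592 FPKM with C. chinensis. The call of ppat-1 was lost with quantile normalization. Nutrient carriers rose widely, 39 of 98 with none lower (median log2FC 0.44, and 18 with quantile normalization), among them the inositol and sugar transporters hmit-1.2 (log2FC 1.57 ± 0.21) and swt-3 (log2FC 1.47 ± 0.19) and the aquaporin gene aqp-8, at 25.5, 40.6, 34.9, 29.8 and 30 FPKM with DMSO and 60, 80.6, 96.2, 81.4 and 95.6 FPKM with C. chinensis (log2FC 1.21 ± 0.13 SE, adjusted p = 8.1e-06).

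Genes of the lysosome and of defence were upregulated, and few genes of autophagy and of the proton pump with them. Of 64 lysosomal genes, 39 rose and none fell (median log2FC 0.74), with the cathepsin B genes cpr-1 (log2FC 2.51 ± 0.48) and cpr-5 (log2FC 2.10 ± 0.22) and the aspartyl protease genes asp-17 (log2FC 2.14 ± 0.30) and asp-2 (log2FC 1.94 ± 0.34) highest. Of 30 autophagy genes, 1 rose, hlh-30, the TFEB transcription factor of lysosome genes, at 26.9, 32, 32.3, 33.3 and 28.2 FPKM with DMSO and 56.5, 49.6, 53.2, 49.8 and 61.7 FPKM with C. chinensis (log2FC 0.68 ± 0.08 SE, adjusted p = 1.5e-05). Of 21 genes of the proton pump that acidifies the lysosome, 3 rose (14.3%, under the 17.7% of all genes), with vha-5 (log2FC 1.35 ± 0.15) highest. Of 64 endosome genes, 1 rose and 2 fell, neither of which was called under the other scalings.

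Of 53 lysozyme, thaumatin, caenopore and related defence genes, 40 rose (median log2FC 1.25). Of 43 small secreted peptide genes of the fip, fipr and nsp kinds, 26 rose and 2 fell, with fipr-24 at 4.2, 7.63, 5.86, 8.08 and 5.77 FPKM with DMSO and 28.3, 32.9, 51.1, 31.4 and 47.3 FPKM with C. chinensis (log2FC 2.36 ± 0.17 SE, adjusted p = 1.1e-06). The intracellular pathogen response is a programme set off by microsporidia and viruses. Of 35 genes in a list of the pals family and other genes linked to this response, 16 rose (median log2FC 0.55). The reporter gene of the response, pals-5, was at 0.574, 0.887, 0.689, 0.359 and 0.645 FPKM with DMSO and 2.24, 1.89, 2.77, 1.83 and 2.94 FPKM with C. chinensis. This gene was low in both groups and passed the expression filter through the treated group alone, so no test is given for it. The genes pals-14 (log2FC 1.19 ± 0.14) and pals-6 (log2FC 1.07 ± 0.11) were higher too. No microbe was measured. C-type lectins rose in 33 of 77 and fell in 1, clec-266.

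Nerve genes rose mostly by less than the fold limit, and neuropeptide genes passed it more often than synapse genes. Of 30 FMRFamide-like neuropeptide genes, 12 rose and 24 were higher without the fold limit (median log2FC 0.50). flp-22 was at 26, 36, 34.1, 29.9 and 30 FPKM with DMSO and 55.5, 56.1, 83.4, 57.9 and 74.7 FPKM with C. chinensis (log2FC 0.91 ± 0.11 SE, adjusted p = 1.6e-05), and flp-6 (log2FC 0.83 ± 0.09) and flp-33 (log2FC 0.78 ± 0.14) were next. The enzymes and vesicle proteins that process such peptides rose in 5 of 15, including cab-1 (log2FC 0.91 ± 0.10), the amidating enzyme gene pamn-1 (log2FC 0.75 ± 0.09) and the proprotein convertase gene kpc-1 (log2FC 0.67 ± 0.08). Of 22 synaptic vesicle genes, 1 rose, the synaptotagmin gene snt-1 (log2FC 0.83 ± 0.13). The difference between peptide and synapse genes was not tested. With quantile normalization 7 flp genes and 0 synaptic vesicle genes were higher.

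Of 10 transmitter genes, 6 rose. The octopamine enzyme gene tbh-1, which is read in neurons and in the gonadal sheath, was at 57.3, 84.3, 77, 75.9 and 69.3 FPKM with DMSO and 134, 133, 184, 143 and 185 FPKM with C. chinensis (log2FC 0.95 ± 0.11 SE, adjusted p = 1.3e-05), and the GABA enzyme genes gta-1 and unc-25 rose by 0.91 ± 0.09 and 0.68 ± 0.14. Ligand-gated channels rose in 9 of 34, led by lgc-32 (log2FC 1.65 ± 0.18), lgc-22 (log2FC 1.46 ± 0.14) and the glutamate-gated chloride channel gene glc-1 (log2FC 1.00 ± 0.11), and other ion channels in 19 of 60, 7 of them bestrophins. Under the other scalings these counts ran from 4 to 13 and from 9 to 28, and that of the transmitter genes from 2 to 6. Of 1635 chemoreceptor-like genes in the table, 31 were high enough to test, and 9 rose, with str-176 at 6.47 ± 0.908 FPKM with DMSO and 19.3 ± 3.3 FPKM with C. chinensis (log2FC 1.37 ± 0.11 SE, adjusted p = 2.0e-06). Under the other scalings 3 to 13 of these receptors rose.

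Insulin-like peptides moved in both directions. Of 26 tested, 9 rose and 5 fell (4 to 5 with a library left out). ins-7, an agonist of the insulin receptor made in gut and nerve cells, was at 25.1 ± 7.53 FPKM with DMSO and 76.7 ± 30.3 FPKM with C. chinensis (log2FC 1.41 ± 0.24 SE, adjusted p = 2.5e-04). ins-23 had the largest decrease among called genes with all 5 C. chinensis libraries below the DMSO mean. It was at 37, 22.4, 27.4, 38.2 and 41.8 FPKM with DMSO and 5.32, 11.3, 22, 16.9 and 8.14 FPKM with C. chinensis (log2FC -1.62 ± 0.30 SE, adjusted p = 4.2e-04). Its C. chinensis libraries spread widely, and the highest of them lay just under the lowest control. ins-20 was at 11.2, 5.82, 7.19, 9.84 and 8.85 FPKM with DMSO and 1.75, 4.2, 6.57, 4.98 and 4.71 FPKM with C. chinensis (log2FC -1.07 ± 0.25 SE, adjusted p = 0.0024), and its groups overlapped. Of the 29 genes of the insulin and PI3K pathway itself, 3 rose, the AMPK subunit gene aakb-1 (log2FC 0.93 ± 0.10) and the kinase genes sgk-1 (log2FC 0.74 ± 0.12) and akt-2 (log2FC 0.69 ± 0.09). This was a smaller share than over all genes (17.7%), and sgk-1 and akt-2 lost their calls with quantile normalization. Without the fold limit 7 of the 29 were higher and 16 lower (median log2FC -0.24), against 30.4% and 34.7% of all genes.

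Some regulators rose, by modest amounts. Of 42 stress and longevity transcription factor genes, 11 rose, with mxl-3 (log2FC 1.03 ± 0.12), the epidermal GATA factor gene elt-3 (log2FC 1.01 ± 0.14), the STAT-like gene sta-2 (log2FC 0.89 ± 0.11) and atf-5 (log2FC 0.80 ± 0.09) highest, and zip-11 fell. Of 156 nuclear hormone receptors, 43 rose and none fell, and 10 to 78 rose under the other scalings. Of 22 TGF-beta genes, 3 rose (13.6%, under the 17.7% of all genes, and 2 to 7 under the other scalings), among them lon-1, a secreted regulator of body length, at 12.7, 19.8, 17.2, 12.4 and 14.1 FPKM with DMSO and 54.3, 37.4, 47.9, 36 and 50.1 FPKM with C. chinensis (log2FC 1.40 ± 0.13 SE, adjusted p = 3.5e-06), and the type I receptor gene sma-6 (log2FC 0.66 ± 0.09). The Notch co-ligand gene osm-11 was at 153 ± 20.6 FPKM with DMSO and 348 ± 57.3 FPKM with C. chinensis (log2FC 1.04 ± 0.11 SE, adjusted p = 7.9e-06), and the FGF receptor gene egl-15 rose by 0.86 ± 0.10. The calls of sma-6 and egl-15 were lost with quantile normalization.

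Genes of the germ line and of cell division were lower, mostly by less than the fold limit. Of 49 meiotic chromosome genes, 46 were lower without a fold limit, against 34.7% of all genes, and 5 passed it (2.96% of all genes did). The median log2FC was -0.43, and -0.39 to -0.29 under the other scalings. The cohesin genes coh-3 and coh-4 fell by 0.67 and 0.68 on the log2 scale, coh-4 standing at 49, 44.3, 43.2, 48.1 and 45.7 FPKM with DMSO and 30.5, 33.5, 30.2, 35.4 and 28.3 FPKM with C. chinensis, and htp-3, of the chromosome axis, fell by 0.68. Of 41 DNA replication genes, 40 were lower without the limit and 3 with it (mcm-4, lig-1 and cdc-6, median -0.44), and of 69 mitosis genes 67 and 3. Of 41 P granule and germ cell fate genes, 35 and 3 were lower in the same order, among them the stem cell gene sygl-1 (fell by 0.69) and the RNA-binding gene puf-8 (fell by 0.65). Of 45 oocyte and maternal genes, 36 were lower without the limit and 1 with it, pie-1. Counts past the fold limit moved with single libraries, within 4 to 13 for the meiotic and 0 to 8 for the replication genes. Without C. chinensis replicate 5 none of mcm-4, lig-1, cdc-6, pie-1 and puf-8 was called, nor without DMSO replicate 5, nor without further scaling or with quantile normalization, and coh-3, coh-4, htp-3 and sygl-1 were not called without further scaling, with quantile normalization or among genes with a mean of at least 5 FPKM. Under the other scalings 1 to 4 meiotic, 0 replication, 0 to 1 mitosis, 0 to 2 P granule and 0 to 1 oocyte genes passed the fold limit. Sperm genes stood apart with a median of -0.11, 1 of 83 higher and 1 lower, and that median changed sign without further scaling.

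Genes of ribosome production were lower as well. Of 41 ribosome biogenesis genes, 35 were lower without the fold limit (median -0.35) and 3 with it, the nucleostemin gene nst-1, pro-1 and the pescadillo gene lpd-7. lpd-7 was at 1149, 1002, 991, 1086 and 1149 FPKM with DMSO and 642, 766, 709, 808 and 640.3 FPKM with C. chinensis (log2FC -0.74 ± 0.09 SE, adjusted p = 2.9e-05). Of 66 mitochondrial ribosomal protein genes, 62 and 6 were lower in the same order (median -0.38), mrps-7 at 91.4 ± 10.2 FPKM with DMSO and 63.3 ± 9.47 FPKM with C. chinensis (log2FC -0.67 ± 0.10 SE, adjusted p = 1.2e-04). With a library left out the last count ran from 1 to 9, lowest without DMSO replicate 5. Among the genes that lost most RNA, R09B3.3 was at 4737, 4075, 4051, 4519.9 and 4399 FPKM with DMSO and 2714, 3274, 3281, 3242 and 2640.0 FPKM with C. chinensis (log2FC -0.67 ± 0.09 SE, adjusted p = 4.6e-05) and F31E3.6 at 291 ± 20.4 FPKM with DMSO and 164 ± 24.1 FPKM with C. chinensis (log2FC -0.98 ± 0.10 SE, adjusted p = 7.5e-06). dohh-1, which modifies the translation factor eIF5A, and puf-12, emb-1, T10B5.3, C16A11.4, F53F4.11, B0511.6, F09F7.7 and the non-coding F20C5.10 fell by 0.60 to 0.77 on the log2 scale. The calls of nst-1, dohh-1, puf-12, F09F7.7 and F20C5.10 were lost without C. chinensis replicate 5 and without further scaling, and all of these but puf-12 also without DMSO replicate 5. Those of mrps-7, R09B3.3 and pro-1 were lost without further scaling, with quantile normalization and among genes with a mean of at least 5 FPKM, and that of B0511.6 without further scaling. Under the other scalings 1 to 2 ribosome biogenesis and 0 to 2 mitochondrial ribosomal protein genes passed the fold limit.

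The remaining core machinery stayed inside the fold limits. No gene was called among 61 spliceosome, 49 nuclear pore, 43 chromatin, 33 proteasome, 33 nuclear-encoded respiratory chain and 41 secretory pathway genes in limma, and voom on the recovered fragments called 0. Without the fold limit 53, 43, 39, 24, 13 and 18 of them were lower, with medians of -0.33, -0.37, -0.37, -0.27, -0.13 and -0.14. With a library left out, up to 3 spliceosome and 3 nuclear pore genes were called lower. The last 2 medians changed sign under another scaling. Messages of the mitochondrial genome had a median of 0.38 in 11 genes, 8 of them higher without the limit, and 1 passed it, nduo-2, at 22.7, 23.1, 35, 34.5 and 30.2 FPKM with DMSO and 49.1, 52.2, 102, 35.4 and 28.3 FPKM with C. chinensis (log2FC 0.61 ± 0.25 SE, adjusted p = 0.044). Its groups overlapped, and the call was lost in 7 of the 10 fits that left out a library.

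**Figure D4:**
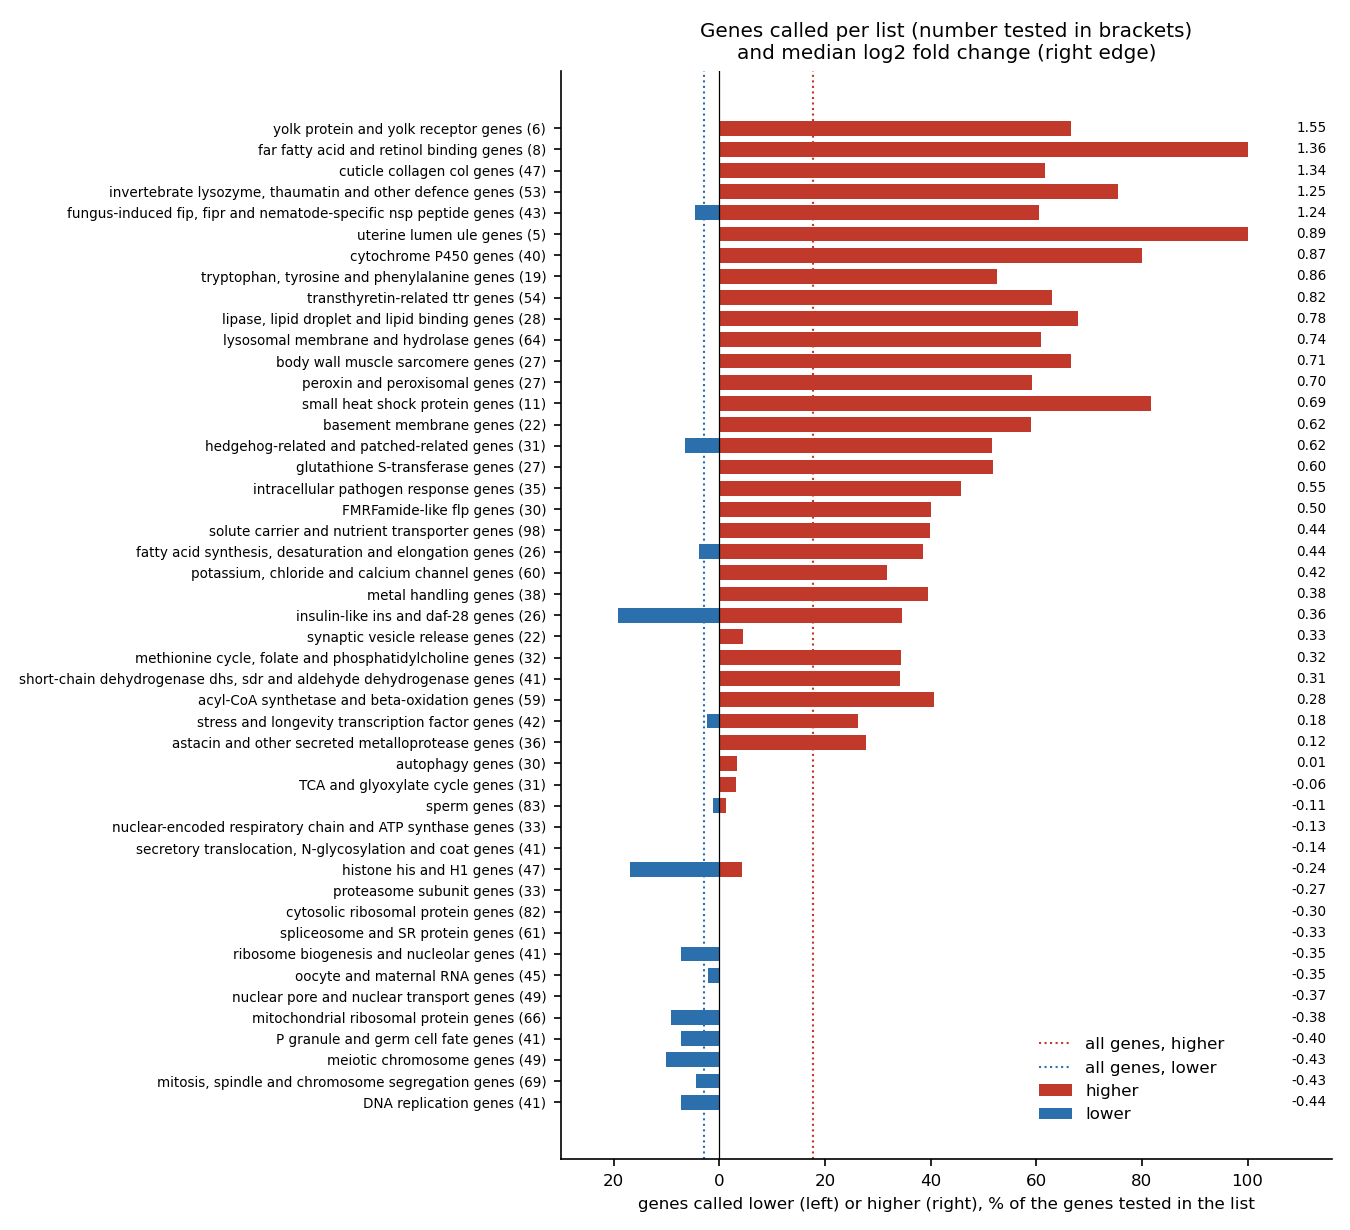
Share of the genes tested in 47 lists that were called lower (blue, left) or higher (red, right) with C. chinensis, in percent, with the median log2 fold change at the right edge. Dotted lines mark the shares over all genes, 17.7% higher and 2.96% lower.

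The lowest log2FC of all genes tested, -1.92, was that of a gene in the fip, fipr and nsp list. Among called genes with all 5 C. chinensis libraries below the DMSO mean, the largest decreases were in genes of other kinds. After ins-23 came R02E4.3, at 3.11, 2.69, 4.18, 7.99 and 5.26 FPKM with DMSO and 0.65, 1.45, 1.84, 1.71 and 0.883 FPKM with C. chinensis (log2FC -1.59 ± 0.26 SE, adjusted p = 2.0e-04), and F13E9.15, at 44.3, 30.6, 25, 41.3 and 53.7 FPKM with DMSO and 7.66, 18.9, 23.6, 25.2 and 10.7 FPKM with C. chinensis (log2FC -1.38 ± 0.30 SE, adjusted p = 0.0013). The groups of R02E4.3 did not overlap, and those of F13E9.15 overlapped in 1 library. The lectin gene clec-266, one of the 17 lower genes of the X, was at 37.2, 20.9, 19.5, 32.4 and 24.4 FPKM with DMSO and 11.9, 11.8, 15.7, 9.18 and 9.98 FPKM with C. chinensis (log2FC -1.28 ± 0.17 SE, adjusted p = 4.4e-05), and the F-box gene fbxa-140 at 39.8, 28.4, 30.8, 34.3 and 36.7 FPKM with DMSO and 13.8, 16.6, 19.3, 17.8 and 13.8 FPKM with C. chinensis (log2FC -1.18 ± 0.12 SE, adjusted p = 5.3e-06). F-box proteins choose targets for degradation, and their fbxa, fbxb and fbxc families had 23 higher and 25 lower of 154 tested. That balance turned with the scaling, to 36 and 10 without further scaling and 6 and 47 with quantile normalization. Histone genes were more often lower than higher, 8 against 2 of 47, with his-60 at 61.4, 43.1, 45, 48.8 and 54.6 FPKM with DMSO and 26.1, 25.7, 31.9, 21.2 and 22 FPKM with C. chinensis (log2FC -1.12 ± 0.11 SE, adjusted p = 5.9e-06) and his-73 next (log2FC -1.10 ± 0.13 SE, adjusted p = 1.4e-05). Histone genes exist in nearly identical copies, so fragments may have been shared among them and the value of a single copy is uncertain.

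**Figure D5:**
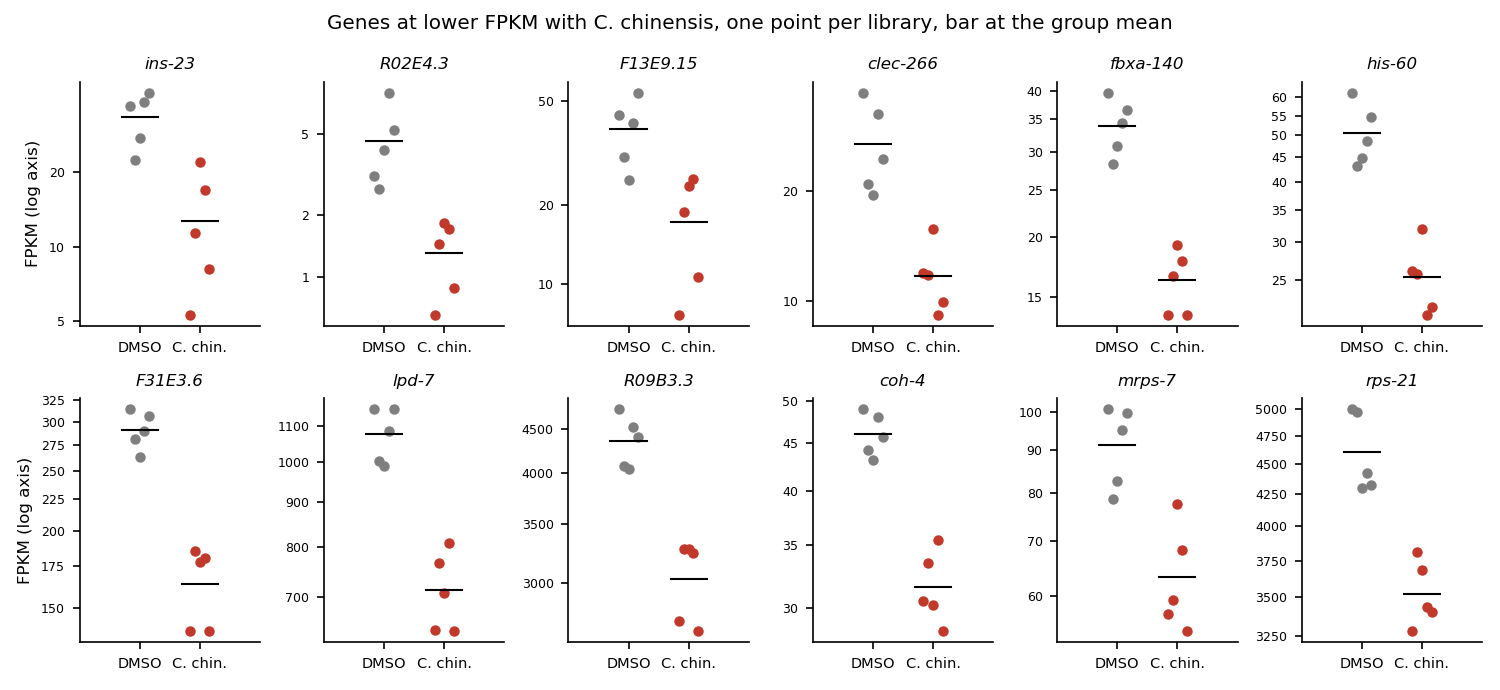
FPKM on a log axis of 12 genes at lower levels with C. chinensis, 1 point per library (grey, DMSO, red, C. chinensis) and a bar at the mean of 5 libraries. The first 11 passed the fold limit, and rps-21, a ribosomal protein gene, did not (log2FC -0.53).

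Pseudogenes were called lower more often than higher in 3 of the 4 scalings. Of 447 tested, 28 rose (6.26%) and 60 fell (13.4%), with a median log2FC of -0.26 that lay between -0.48 and -0.14 under the other scalings. Higher and lower pseudogenes numbered 34 and 24 without further scaling, 31 and 54 with median of ratios and 10 and 167 with quantile normalization. Protein-coding genes had 18.3% higher and 2.55% lower of 12758. In the class ncRNA, 15 genes rose and 9 fell, among the latter F28A10.11, at 13.7, 14.7, 13.6, 14.7 and 17.5 FPKM with DMSO and 4.32, 8.79, 7.52, 9.87 and 5.71 FPKM with C. chinensis (log2FC -1.17 ± 0.18 SE, adjusted p = 1.2e-04). The library kit was not stated to keep strand, so reads of a non-coding gene and of a gene on the opposite strand cannot be told apart. The non-coding RNA rncs-1, read in gut and epidermis, was at 7.99, 8.68, 9.73, 9.6 and 7.52 FPKM with DMSO and 17.1, 28.8, 45.8, 47.2 and 57.8 FPKM with C. chinensis. Its treated libraries all lay above the controls and spread from 17.1 to 57.8 FPKM.

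Some genes crossed from trace to measurable levels. In 165 genes (1.22%) all 5 DMSO libraries were under 1 FPKM and all 5 C. chinensis libraries at 1 FPKM or more. They entered the comparison through the treated group alone and were chosen for this separation, so no test is given for them. Of the 165, 141 are still counted among the upregulated genes, and in the lists and runs to which they belong. The reverse held for 5 genes (0.0369%), C03H5.9, fbxb-26, aptf-4, btb-10 and F45D11.5. The group means of the 165 with C. chinensis had a median of 1.69 FPKM and a highest value of 4.11 FPKM, so that these genes were low in both groups. drd-10 was at 0, 0.287, 0.188, 0 and 0.0344 FPKM with DMSO and 1.22, 2.85, 3.34, 1.87 and 4.11 FPKM with C. chinensis, and the invertebrate-type lysozyme gene ilys-3 at 0.289, 0.801, 0.63, 0.758 and 0.614 FPKM with DMSO and 4.04, 3.32, 4.9, 3.38 and 3.72 FPKM with C. chinensis. By chromosome, 63 of the 165 were on V (38.2%) and 35 on X (21.2%), which hold 18.6% and 12.6% of the genes tested. The chitinase-like genes chil-22 and chil-12, the collagens col-98 and col-20, the cytochrome P450 genes cyp-35B1 and cyp-34A5, the lectins clec-258 and clec-97 and the neuropeptide-like gene nlp-30 were among them.

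Some upregulated genes lay side by side. Taking the genes tested in order along each chromosome, 42 runs of 5 or more neighbours were all upregulated, together 9.78% of the upregulated genes, of which 18 runs were on the X and 15 on V. The longest held 12 genes on chromosome V from 3906106 to 3989770 (83.7 kb, WBcel235), with the receptor gene nhr-156, 5 cytochrome P450 genes (cyp-35B1, cyp-34A4, cyp-34A5, cyp-34A8 and cyp-34A9) and 6 peptide genes of the epidermis, nlp-27 to nlp-31 and nlp-34. Their log2FC ranged from 0.59 to 2.47 with a median of 1.52. Of these genes, cyp-35B1, cyp-34A5 and nlp-30 had passed the expression filter through the treated group alone, so their calls were not independent of it. On chromosome I, 6 pals genes from 13107492 to 13141898 rose by 0.82 to 1.23. On the X, nspc-16 to nspc-20 and T24C2.5 between 14523575 and 14539522 rose by 0.76 to 2.17. On chromosome III, 6 genes between 823222 and 843802 held the bZIP factor gene zip-2, the epoxide hydrolase gene ceeh-1 and far-8. Neighbours of one family can share fragments, and no test of such clustering was made.

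Treated worms varied more among libraries than controls did. The median SD of log2 values was 0.18 with C. chinensis and 0.13 with DMSO over all genes tested. Among upregulated genes alone the medians were closer, at 0.23 and 0.21. Among upregulated genes over 5 FPKM the widest spread within the treated group was in spp-9 and in collagens. The gene cpr-1 spread more among the controls (SD 1.27) than among the treated libraries (SD 0.61). col-19, a collagen of adult cuticle, was at 1.11, 4, 2.42, 4.2 and 1.13 FPKM with DMSO and 37.5, 11.6, 11.3, 5.43 and 25.2 FPKM with C. chinensis (log2FC 2.34 ± 0.44 SE, adjusted p = 4.6e-04), and col-8 at 3.62, 6.89, 4.84, 6.13 and 4.74 FPKM with DMSO and 82.4, 27.1, 33, 14.4 and 50.1 FPKM with C. chinensis. C. chinensis replicates 1 and 5 were the highest and replicate 4 the lowest for both, as for col-101, col-143 and col-178. In ttr-51 and ule-1 replicate 3 was the highest and replicate 1 the lowest. With each library left out in turn, between 2261 and 2525 genes were higher.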

How the data were processed

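RNA from whole worms was made into libraries with the NEBNext Ultra kit and sequenced in paired ends. The authors aligned reads with HISAT2 to WBcel235 and deposited 1 table of FPKM values for the 15 libraries of the series. The version, the annotation and the counting tool were not given in the sources used here. The values of all 26686 genes above 0 were whole multiples of 1 fragment (tolerance 0.001), which gave the library totals. Of the gene IDs, 46603 were found in Ensembl release 115, which supplied classes and WBcel235 coordinates. 5 gene names that had been turned into dates were replaced by the symbols that the reference pairs with their IDs.

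The 10 libraries of DMSO and C. chinensis were scaled by unweighted TMM factors computed on FPKM, and log2(FPKM + 0.5) was fitted with limma 3.58.1 (R 4.3.3) with a trend and Benjamini-Hochberg adjustment over 13556 genes. Fold changes are on this scale, which understates changes of low genes. A gene was called when it changed more than 1.5-fold with an adjusted p under 0.05. Because the files hold FPKM, limma was the main test, and voom on the recovered fragments was an alternative. The scripts were tested on simulated data.

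Per-library values in the text are FPKM as deposited. Genes were named as the 15 largest changes in each direction, the 15 largest gains and losses of FPKM, up to 4 called members of each list and the 10 smallest p, and others are said to be chosen after their values were seen or are members of a run, a crossing or a spread described. The comparison, the 104 gene lists and these rules were chosen with earlier results of these data known. The lists of far, ule, ttr, vit, col, ugt, pgp, nhr, clec, best, F-box, histone, msp, collagen IV and purine genes were added after values were seen. Alternatives were other scalings, pseudocounts of 0.1 and 1, other filters and fold limits, all 15 libraries, blocks, library weights, the Wilcoxon test, and leaving out libraries. The columns of the other extract were used in 1 alternative only. Python 3.11.15, pandas 2.3.3 and numpy 2.4.6 made the tables.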

Additional observations from a re-analysis of the deposited data

Results flagged for a closer look

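In 458 groups of 5 libraries, each the values of 1 gene or share named above in 1 treatment, the highest or lowest library was compared with its nearest neighbour, and 16 stood apart by Dixon's criterion (a gap above 0.71 of the range). Chance flags about 1 in 20 groups.

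Among the controls, DMSO replicate 2 was high in the muscle genes cpn-3 (24.8 FPKM, next 19.4 FPKM) and tnt-2 (2.76 FPKM, next 1.61 FPKM) and in sod-3 (1.23 FPKM, next 0.918 FPKM). DMSO replicate 5 was high in ctl-1 (13.4 FPKM, next 8.43 FPKM) and in F28A10.11 (17.5 FPKM, next 14.7 FPKM), and low in mec-5 (3.51 FPKM, next 5.09 FPKM). None of these high values reached the treated range of a gene that rose, and the calls of these genes held with each library left out.

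Among the treated libraries, C. chinensis replicate 5 was high in cpt-4 (31.1 FPKM, next 22.9 FPKM), in nhr-68 (34.0 FPKM, next 28.7 FPKM), in gsnl-1 (7.57 FPKM, next 6.41 FPKM), in mec-7 (2.37 FPKM, next 1.94 FPKM), in sfrp-1 (6.97 FPKM, next 4.87 FPKM) and in the share of the far genes (0.883% of the summed FPKM, next 0.696%). C. chinensis replicate 4 was low in math-38 (2.97 FPKM, next 4.63 FPKM). C. chinensis replicate 3 was high in prx-3 (14.5 FPKM, next 10.1 FPKM), in F45D11.5, a gene that fell (0.881 FPKM, next 0.373 FPKM), and in the share of the mitochondrially encoded genes (0.685%, next 0.458%).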

How the results depend on the processing

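The 2403 higher and 401 lower genes were recounted under each alternative. Higher genes numbered 1545 with quantile normalization, 878 with fold limits of 2 and 0.5 and 4124 with no fold limit, and otherwise stayed within 1.5 times, from 2261 to 2525 with each library left out. Lower genes numbered 217 with an FPKM of at least 1 in all 10 libraries, 83 with a mean FPKM of at least 5, 118 without further scaling, 821 with quantile normalization, 705 without the deepest libraries, 15 with fold limits of 2 and 0.5, 4707 with no fold limit and from 229 to 588 with a library left out (lowest without C. chinensis replicate 5, highest without DMSO replicate 3). The share of called genes that were higher was 85.7%, and 96.3% without further scaling, 65.3% with quantile normalization, 98.3% with fold limits of 2 and 0.5, 46.7% with no fold limit, and 79.7% to 90.8% with a library left out. The cause of these moves was not tested.

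No pairing by the replicate numbers of the titles was seen. The deviations of same-numbered libraries correlated at -0.14 to -0.02, and those of differently numbered libraries at -0.26 to 0.26. The replicate block gave 2412 higher and 402 lower genes. Whether libraries shared a culture or a day cannot be told from these values. The numbers in the library codes gave correlations of -0.14 to 0.01. A block on them, over the libraries with a shared number, gave 790 lower genes and 75.1% higher, and the same libraries without the block, an alternative chosen after seeing the data, 777 and 75.3%. The alternative window for promoter motifs was not run, since no motif was searched. The 3-fragment level of a gene of 1 kb was 0.0362 to 0.0791 FPKM over the 10 libraries, and a finer effect of depth was not tested.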

Other observations

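Calls in further lists are given beside the shares of all genes tested, 17.7% higher and 2.96% lower. Of 83 genes for adaptors of ubiquitin ligases, which bring targets to the enzyme, 7 rose (8.43%) and 3 fell, with math-38 (log2FC 1.67 ± 0.27) and math-14 (log2FC 1.45 ± 0.22) highest. Among sphingolipid genes 5 of 23 rose (21.7%), including the acid ceramidase genes asah-1 (log2FC 1.13 ± 0.17) and asah-2 (log2FC 0.92 ± 0.12). Of 16 genes for the breakdown of branched-chain amino acids 4 rose, ech-7 (log2FC 1.67 ± 0.21) and acdh-2 (log2FC 1.30 ± 0.25) most. Chitinase and chitin-binding genes rose in 7 of 19, with cpg-7 (log2FC 1.44 ± 0.15) highest. Of 9 genes for SCP/TAPS secreted proteins 5 rose, with scl-2 at 21.6, 38.6, 37.5, 39.8 and 23.1 FPKM with DMSO and 144, 100.3, 153, 77.8 and 138 FPKM with C. chinensis (log2FC 1.78 ± 0.19 SE, adjusted p = 8.2e-06). Its groups did not overlap.

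Of 9 mec genes of the touch receptor neurons, 4 rose, among them the collagen gene mec-5 (log2FC 0.93 ± 0.12) and the tubulin genes mec-7 (log2FC 0.63 ± 0.13) and mec-12 (log2FC 0.59 ± 0.16). The call of mec-12 was lost under 5 alternatives and in 6 of the 10 fits that left out a library, and that of mec-7 with a pseudocount of 1, with quantile normalization and without DMSO replicate 4. Actin regulators rose in 5 of 37 (13.5%), with gsnl-1 (log2FC 1.20 ± 0.13) and the profilin gene pfn-2 (log2FC 1.01 ± 0.09) highest. Of 29 Wnt genes 3 rose (10.3%), including the secreted inhibitor gene sfrp-1 (log2FC 0.87 ± 0.14) and the beta-catenin gene bar-1 (log2FC 0.67 ± 0.11), and 1 fell. The calls of sfrp-1 and bar-1 were lost with quantile normalization. Without the fold limit 7 of the 29 Wnt genes were higher and 12 lower (median log2FC -0.17). Of 59 genes of small RNA pathways 1 rose, the Argonaute gene sago-1 (log2FC 0.68 ± 0.08), and 3 fell, with mut-7 (log2FC -0.65 ± 0.09) lowest (median log2FC -0.37, 47 lower without the fold limit). The count of lower genes ran from 0 to 3 under the other scalings and 1 to 7 with a library left out. mut-7 lost its call without further scaling, with quantile normalization, among genes with a mean of at least 5 FPKM and without C. chinensis replicate 5, and sago-1 with quantile normalization. Among translation factors, iff-2, which encodes a form of eIF5A, rose (log2FC 0.67 ± 0.07 SE, adjusted p = 7.5e-06), the 1 gene called of 49. Without the fold limit 5 of the 49 were higher and 29 lower (median log2FC -0.23).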
